A study of Mus musculus with 7 samples.

Results

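The genes described here are 8 markers of the epicardium and of the mesothelium, the cell layers that cover the heart and line the body cavities, in outflow tracts (OFTs) of mouse embryos: *Wt1*, *Tcf21*, *Bnc1*, *Upk3b*, *Upk1b*, *Lrrn4*, *Msln* and *Anxa8*. They were taken by name from the normalized table of expressed genes, in which all 8 were found among 14732. *Anxa8* was chosen by its normalized level, which was higher in the mutant OFTs, and the question was whether the other markers were higher with it. For this reason the difference of *Anxa8* between genotypes is given as a description without a test, while the 7 others were tested.

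RNA was sequenced from OFTs at embryonic day (E) 11.5, the vessel through which the embryonic heart empties. There were 3 control pools of wild-type embryos (replicates 3, 4 and 5) and 4 Gata6STOP/+ pools (replicates 1, 3, 4 and 5), the latter carrying 1 CRISPR-Cas9 frameshift allele of *Gata6* that introduces a premature stop codon. The mutant line descends from a single selected founder that was crossed back to C57BL/6, and each library holds 4 pairs of OFTs, so differences between embryos of a pool are not visible. Nothing states that the pools came from separate litters, so p-values measure the spread between these pools. The listed genes held 17783655 to 29035529 reads in each control pool and 24736761 to 34467710 in each mutant pool. Genes of cardiac muscle (summed level 16949 to 24737 CPM over all pools), smooth muscle (3338 to 4403) and endothelium (925 to 1231) were present, where CPM is the read count scaled to library size. *Gata6*, the targeted gene, measured 315, 257 and 286 CPM in control pools 3, 4 and 5, and 268, 203, 219 and 217 in Gata6STOP/+ pools 1, 3, 4 and 5. Its mean was 79.2% of control, and pool 1 of the mutants exceeded control pool 4 (log2 difference -0.34 ± 0.10 SE, limma adjusted p = 0.389). Of 19 alternatives, 1 took *Gata6* past the threshold, edgeR's likelihood ratio test blocked on replicate number (log2 difference -0.42, adjusted p = 0.0164). This fit called 0.801% of all genes. The other alternatives gave *Gata6* adjusted p from 0.102 by DESeq2 to 0.730 by limma without control replicate 3. The series' design text speaks of 3 pools per genotype, and all 4 mutant pools were used here. Without mutant pool 1 the log2 difference of *Gata6* was -0.42 (limma adjusted p = 0.170). Gata6STOP/+ pool 4 stood apart in *Xist*, the RNA of the inactive X chromosome, with 1.3 CPM against 157 to 662 CPM in the other 6 pools, and had the highest sum of Y-linked genes.

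The epicardium forms when cells of the proepicardium spread over the heart. Some of its cells leave the sheet, lose their epithelial character and enter the heart wall as mesenchyme, and it is a source of retinoic acid for the myocardium beneath it. Mesothelium of the pericardium, lung and gut shares many of its genes, among them transcription factors and surface proteins of the apical membrane. Annexins are cytoplasmic proteins that bind membrane phospholipids in the presence of calcium.

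The annotated genes lie on different chromosomes of GRCm38 except for a pair on chromosome 2. *Wt1* spans chr2:105126529-105173616 on the plus strand and *Lrrn4* chr2:132868305-132880891 on the minus strand. *Upk3b* lies at chr5:136038496-136046487 (plus), *Bnc1* at chr7:81966672-81992292 (minus), *Tcf21* at chr10:22817281-22820174 (minus), *Anxa8* at chr14:34085981-34100571 (plus), *Upk1b* at chr16:38773184-38800328 (minus) and *Msln* at chr17:25748613-25754378 (minus). A gene on the opposite strand overlaps *Anxa8* (A630023A22Rik), *Tcf21* (Gm10824) and *Bnc1* (4833418N17Rik). None of these 3 is in the table. The libraries mark the strand, but the strand setting of the counting was not given in the sources used here, so reads of an overlapping partner cannot be told apart from those of the marker.

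Promoter sequences are shown for *Upk3b* and *Bnc1*, the pair of markers whose levels followed each other most closely between pools, and for *Anxa8*, which differed between genotypes. Each is the 250 bases before the RefSeq start of the gene on GRCm38.p6, from 5′ to 3′ on the strand of the gene, at chr5:136038246-136038495 (plus), chr7:81992300-81992549 (minus) and chr14:34085729-34085978 (plus). RefSeq windows were found for 5 of the 8 markers, the others being *Tcf21* and *Lrrn4*. Capitals mark a match to a GATA factor hexamer, searched on both strands. The letters AGATAA were counted as a match, and so was the form AGATAG with a final G. The form TGATAA with a leading T counted as well, as did the last of the 4 forms, TGATAG.
Upk3b: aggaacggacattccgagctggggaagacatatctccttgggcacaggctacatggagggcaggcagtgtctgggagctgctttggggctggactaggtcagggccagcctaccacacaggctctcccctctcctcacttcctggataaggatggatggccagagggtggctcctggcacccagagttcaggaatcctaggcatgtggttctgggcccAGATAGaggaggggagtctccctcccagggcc
Bnc1: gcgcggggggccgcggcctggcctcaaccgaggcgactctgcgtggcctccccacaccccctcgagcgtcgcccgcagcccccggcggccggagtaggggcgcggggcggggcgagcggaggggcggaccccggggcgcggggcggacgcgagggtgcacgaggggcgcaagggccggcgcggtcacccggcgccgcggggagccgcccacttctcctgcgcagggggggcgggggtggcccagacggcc
Anxa8: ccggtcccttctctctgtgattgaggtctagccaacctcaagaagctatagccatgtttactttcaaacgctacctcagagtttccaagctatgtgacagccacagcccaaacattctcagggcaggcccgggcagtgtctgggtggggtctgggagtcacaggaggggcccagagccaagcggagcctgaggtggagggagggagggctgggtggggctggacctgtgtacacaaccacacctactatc
The *Upk3b* window holds 1 match, AGATAG, that of *Bnc1* holds 0 and that of *Anxa8* holds 0. At least 1 match stood in 26.5% of the 32851 RefSeq promoter windows of this length. The G and C share was 60.8% for *Upk3b*, 83.6% for *Bnc1* and 58.0% for *Anxa8*.

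All 8 markers were detected in every pool. Per kilobase of annotated exon, *Upk3b* had the highest level in control OFTs, at 53.9 ± 5.65 CPM per kb (SD, n = 3). It was followed by *Tcf21* at 16.8 ± 1.62, *Upk1b* at 11.6 ± 1.14, *Lrrn4* at 10.4 ± 1.21, *Wt1* at 6.41 ± 0.602 and *Bnc1* at 4.78 ± 0.991. *Msln* at 1.10 ± 0.132 and *Anxa8* at 0.525 ± 0.0578 CPM per kb were the lowest. *Upk1b* and *Lrrn4* did not differ beyond their SDs, and other neighbours in this order did.

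**Figure D1:**
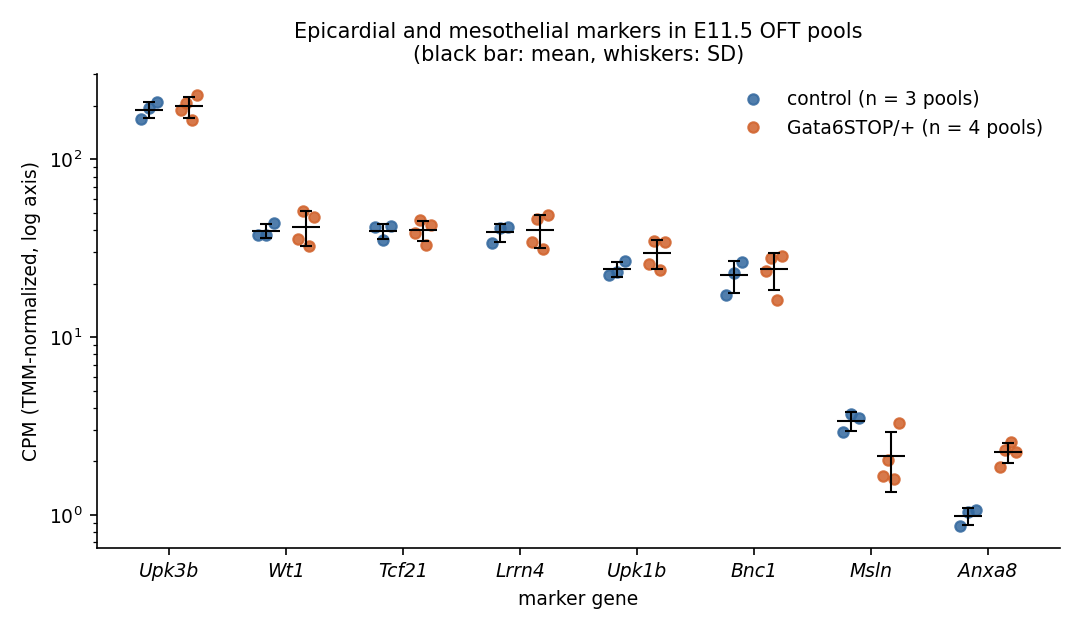
TMM-normalized CPM (log axis) of the 8 markers, each point a pool, with the mean and SD of 3 control (blue) and 4 Gata6STOP/+ (orange) pools. For *Anxa8* alone do all orange points lie above all blue ones, from 1.86 to 2.56 against 0.863 to 1.06 CPM.

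None of the 7 other markers changed in Gata6STOP/+ OFTs at an adjusted p of 0.05, and 6 of them had log2 differences between 0.01 and 0.27 while *Msln* was at -0.60. The same limma fit called 0 of 14732 genes, or 0.0%, and gave 1187 genes, or 8.06%, an unadjusted p under 0.05, as did 1 of the 7 markers. In bulk tissue, fewer cells of a layer and less RNA per cell cannot be told apart.

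*Wt1*, the zinc-finger factor that defines the epicardium, measured 37.4, 37.7 and 44.0 CPM in control pools 3, 4 and 5 and 35.8, 51.5, 32.5 and 47.4 CPM in Gata6STOP/+ pools 1, 3, 4 and 5. Mutant pools 3 and 5 lay above all controls and pools 1 and 4 below, so the mutants enclosed the controls. The log2 difference was 0.05 ± 0.15 SE (95% interval -0.27 to 0.37, limma adjusted p = 0.952).

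*Tcf21*, a basic helix-loop-helix factor of epicardial cells and of the fibroblasts they give rise to, measured 41.5, 35.2 and 42.0 CPM in the controls and 38.3, 45.3, 33.1 and 42.7 CPM in the mutants, in the same order of pools. Again pools 3 and 5 of the mutants were highest and pool 4 was lowest. Its log2 difference of 0.01 ± 0.11 SE was the smallest of the 8 (interval -0.23 to 0.24, limma adjusted p = 0.993).

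*Bnc1*, a zinc-finger protein of basonuclin type, was at 17.3, 23.0 and 26.4 CPM in control pools and at 23.5, 28.0, 16.3 and 28.4 CPM in Gata6STOP/+ pools. Controls and mutants overlapped over nearly their whole range. The log2 difference was 0.10 ± 0.19 SE (interval -0.32 to 0.52, limma adjusted p = 0.920).

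*Upk3b* and *Upk1b* encode uroplakins, membrane proteins best known from the bladder lining and also made by mesothelium. *Upk3b* stood at 169, 193 and 209 CPM in controls and at 190, 207, 167 and 230 CPM in mutants, again with mutant pool 4 lowest and pool 5 highest. Its log2 difference was 0.05 ± 0.11 SE (interval -0.18 to 0.29, limma adjusted p = 0.923). *Upk1b*, a tetraspanin, stood at 22.4, 23.2 and 26.9 CPM in controls and at 25.9, 34.5, 23.9 and 34.2 CPM in mutants. Here pools 3 and 5 of the mutants exceeded every control, whereas pools 1 and 4 fell within the control range. *Upk1b* had the largest positive difference of the 7, 0.27 ± 0.13 SE on the log2 scale (interval -0.02 to 0.57, limma adjusted p = 0.651). The other uroplakin genes *Upk1a*, *Upk2*, *Upk3a* and *Upk3bl* are not in the table of expressed genes.

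*Lrrn4*, a leucine-rich repeat membrane protein, measured 33.6, 40.8 and 41.8 CPM in control pools and 34.2, 45.9, 31.4 and 48.8 CPM in mutant pools. The groups overlapped, with a log2 difference of 0.03 ± 0.15 SE (interval -0.30 to 0.36, limma adjusted p = 0.976). Of its relatives, *Lrrn3* was higher in every Gata6STOP/+ pool, as were 4.31% of all genes. It was at 7.79 to 10.3 CPM, highest in mutant pool 1, against 5.85 to 7.04 CPM (log2 difference 0.38 ± 0.13 SE, limma adjusted p = 0.466). *Lrrn1* and *Lrrn2* had log2 differences of 0.06 and -0.03, with overlapping groups.

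*Msln*, which encodes mesothelin, a surface glycoprotein of mesothelial cells, differed in the direction opposite to that of *Anxa8*. It was at 2.92, 3.69 and 3.53 CPM in controls and at 1.65, 2.03, 1.59 and 3.29 CPM in mutants. Pools 1, 3 and 4 of the mutants were below every control, and pool 5 was within the control range. The log2 difference of -0.60 ± 0.22 SE had a 95% interval from -1.07 to -0.12, and its unadjusted p was 0.0195 by limma, but the adjusted p was 0.517. *Msln* rested on 39 to 113 reads per pool.

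*Anxa8* was at 0.863, 1.04 and 1.06 CPM in control pools 3, 4 and 5 and at 1.86, 2.32, 2.56 and 2.27 CPM in Gata6STOP/+ pools 1, 3, 4 and 5. Every mutant pool lay above every control pool (the log2 difference was 0.83 without pool 4), as for 635 of all genes, or 4.31%. The mean was 0.987 ± 0.109 CPM (SD, n = 3) in controls and 2.25 ± 0.292 CPM (SD, n = 4) in mutants, or 228% of control. On the log2(CPM + 0.5) scale, which understates low genes, the difference was 0.88 ± 0.17 SE. These values rested on 18 to 30 reads in control pools and 53 to 78 reads in mutant pools. The exact 95% Poisson interval, which covers counting error only, reached up to 1.66 CPM in control pool 5 and down to 1.39 CPM in mutant pool 1.

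**Figure D2:**
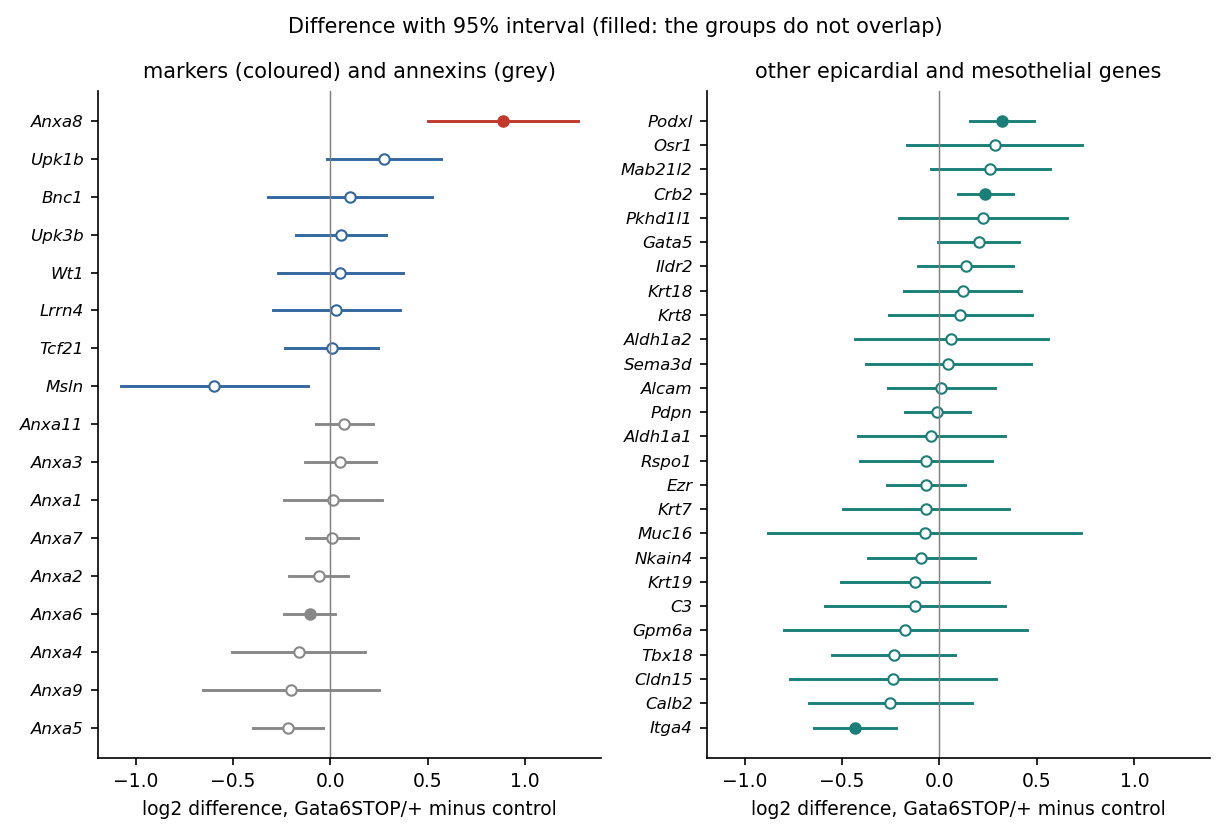
Log2 difference of Gata6STOP/+ minus control with its 95% interval for the 8 markers and the other annexins (left) and for the other epicardial and mesothelial genes (right), where filled points stand for genes whose pools do not overlap. *Anxa8* is at 0.88 and *Msln* at -0.60, while the other 6 markers lie between 0.01 and 0.27. The interval of *Anxa8* is not a test, since this gene was chosen for its higher level.

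The level of *Anxa8* relative to the other markers was read pool by pool as its log2(CPM + 0.5) minus the mean of the 7 others. It was -4.35, -4.32 and -4.43 in control pools 3, 4 and 5 and -3.56, -3.61, -2.99 and -3.73 in Gata6STOP/+ pools 1, 3, 4 and 5. The mean relative level was thus 0.90 higher in mutants, close to the difference of *Anxa8* itself. This difference involves the values by which *Anxa8* was chosen, so it is a description and no test. The mutant pool with the most *Anxa8*, pool 4, had the lowest levels of *Wt1*, *Tcf21*, *Bnc1*, *Upk3b* and *Lrrn4* of all 7 pools. *Msln* relative to the 6 markers other than itself and *Anxa8* was lower in every mutant pool, at -4.40 to -3.82 against -3.58 to -3.35 on the same log2 scale. The mean of these 6 markers, centred on the 7 pools, ran from -0.18 to 0.10 in controls and from -0.29 to 0.26 in mutants, so the groups overlapped.

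**Figure D3:**
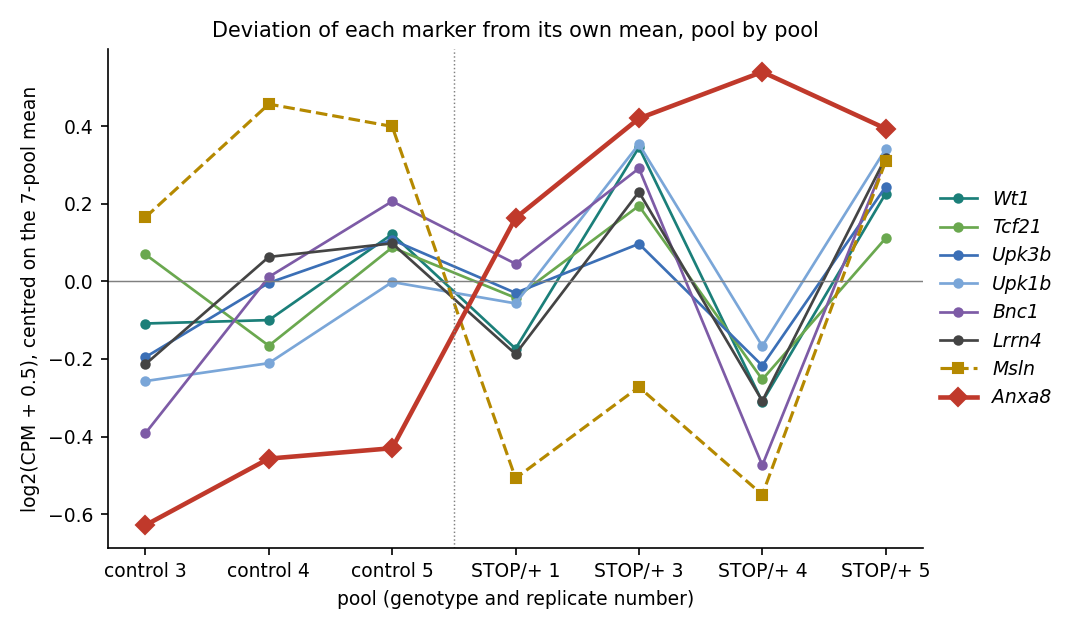
Log2(CPM + 0.5) of each marker centred on its mean over the 7 pools, with a line joining the values of 1 gene and no order among replicates. The 6 markers other than *Msln* (dashed) and *Anxa8* (red) are low in Gata6STOP/+ pool 4 and high in pools 3 and 5, while *Anxa8* is highest in pool 4, at 0.54.

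The rule did not use how the 7 other markers varied from pool to pool, and this was tested. *Wt1*, *Tcf21*, *Bnc1*, *Upk3b*, *Upk1b* and *Lrrn4* varied together, with Pearson's r between 0.61 and 0.96 over the 7 pools in their 15 pairs (median 0.83). Of all 21 pairs of the 7 markers, 6 passed an adjusted p of 0.05 (exact permutation test, two-sided, Benjamini-Hochberg over 21 pairs), and each of the 6 was a pair among these 6 markers. The 6 pairs with *Msln* had r from -0.01 to 0.54, and 0 of them passed. How often pairs of other genes pass in these 7 pools was not computed.

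*Upk3b* and *Bnc1* followed each other most closely (r = 0.96, exact permutation p = 0.00079, adjusted p = 0.0167). Spearman's rho of this pair was 0.93 (exact permutation p = 0.0067, adjusted p = 0.0354), and r was 0.98 without the 2 pools farthest from the median of *Upk3b*. *Upk3b* and *Lrrn4* had r = 0.94 (exact permutation p = 0.0020, adjusted p = 0.0208) and rho = 0.96 (exact permutation p = 0.0028, adjusted p = 0.0292), with r = 0.85 without the 2 farthest pools. *Wt1* and *Lrrn4* had r = 0.91 (exact permutation p = 0.0075, adjusted p = 0.0396) and rho = 0.93 (exact permutation p = 0.0067, adjusted p = 0.0354), with r = 0.84 without the 2 farthest pools. *Bnc1* and *Lrrn4* had r = 0.90 (exact permutation p = 0.0060, adjusted p = 0.0396) and rho = 0.96 (exact permutation p = 0.0028, adjusted p = 0.0292), with r = 0.83 without the 2 farthest pools.

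*Wt1* and *Tcf21*, both factors of epicardial cells, had r = 0.87 (exact permutation p = 0.0113, adjusted p = 0.0472) and rho = 0.89 (exact permutation p = 0.0123, adjusted p = 0.0517), with r = 0.77 without the 2 farthest pools. *Wt1* and *Upk1b* had r = 0.87 (exact permutation p = 0.0135, adjusted p = 0.0472) and rho = 0.71 (exact permutation p = 0.0881, adjusted p = 0.123), and r fell to 0.47 without mutant pools 3 and 5, so over all pools this relation rests on those 2. With each genotype centred separately, the same pair had the highest r of all 21 pairs (r = 0.99, exact permutation within genotypes p = 0.0069, adjusted p = 0.0365). *Wt1* and *Lrrn4* no longer passed (exact permutation within genotypes p = 0.0903, adjusted p = 0.135), although their r stayed at 0.91. Permuting only within genotypes allows fewer arrangements, so these p-values cannot be set against those over all pools. Over the 15 pairs, r without the 2 farthest pools stayed positive in 15 and was at least 0.5 in 11. No pair passed when Gata6STOP/+ replicate 4 was left out (r from 0.35 to 0.94 in the 15 pairs) or when control replicate 5 was left out (r from 0.58 to 0.96), and 3 to 10 pairs passed without each other pool. *Msln* was the marker whose relation to the others changed most when the genotypes were centred separately: its r then ran from 0.42 to 0.87, and *Lrrn4* with *Msln* passed (r = 0.87, exact permutation within genotypes p = 0.0139, adjusted p = 0.0486). Within genotypes the 15 other pairs had r from 0.62 to 0.99, of which 5 passed.

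**Figure D4:**
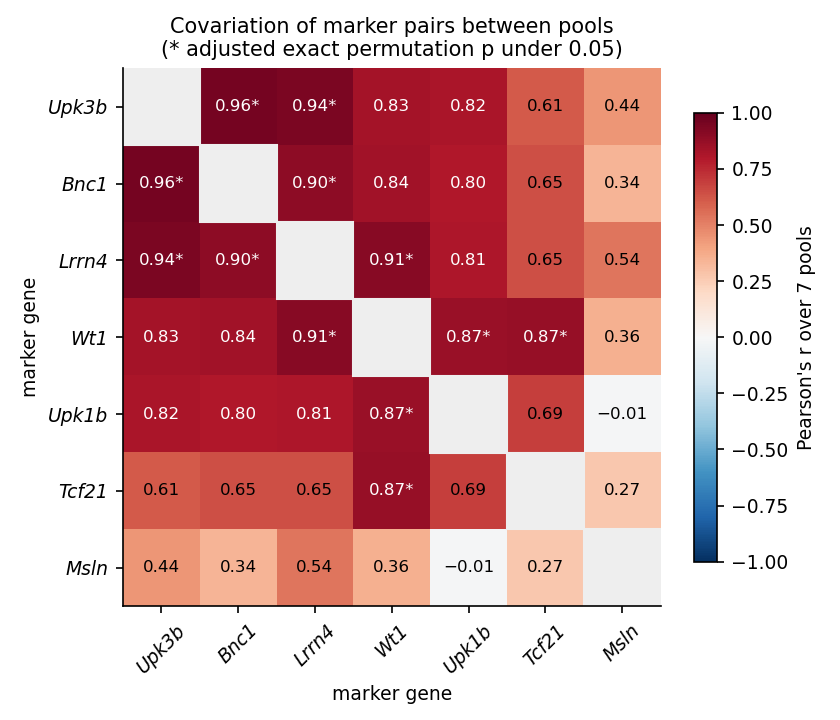
Pearson's r over 7 pools for each pair of the 7 markers other than *Anxa8*, on a colour scale from -1 to 1, with a star for an adjusted exact permutation p under 0.05. *Upk3b*, *Bnc1*, *Lrrn4* and *Wt1* have r of 0.83 or more among themselves, and the row of *Msln* is the palest.

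A wider list of 30 epicardial, proepicardial and mesothelial genes was read in the same way, of which 26 are in the table (*Bnc2*, *Dmkn*, *Slpi* and *Sbspon* are not). In it, 12 genes had a positive and 14 a negative difference, with a median of -0.03 on the log2 scale beside 0.00 over all listed genes, and 0 passed the adjusted threshold of limma (3 of 26 at an unadjusted p under 0.05, beside 8.06% of all genes). *Tbx18*, a T-box factor of the proepicardium, was at 69.5, 65.9 and 80.8 CPM in controls and 54.3, 73.3, 47.6 and 72.5 CPM in mutants (log2 difference -0.24 ± 0.14 SE, limma adjusted p = 0.733). *Aldh1a2*, the enzyme that makes retinoic acid, was at 42.5, 42.1 and 50.7 CPM in controls and 33.3, 67.1, 34.9 and 61.8 CPM in mutants (0.06 ± 0.22 SE, limma adjusted p = 0.963). Both were lowest in mutant pools 1 and 4, as *Wt1* was. *Muc16*, a mucin that binds mesothelin, ran from 2.30 to 4.28 CPM in controls and from 1.75 to 5.84 CPM in mutants, and *Gpm6a*, a membrane glycoprotein, from 4.84 to 9.73 CPM in controls and from 4.46 to 9.13 CPM in mutants. The epithelial keratins *Krt8*, *Krt18* and *Krt19* had log2 differences of 0.11, 0.12 and -0.13, with overlapping groups.

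In 3 of the 26 genes the groups did not overlap, beside 8.47% of all genes. *Podxl*, a sialomucin of apical membranes, was at 153, 164 and 167 CPM in controls and 186, 209, 189 and 224 CPM in mutants (log2 difference 0.32 ± 0.07 SE, limma adjusted p = 0.243). *Crb2*, an apical polarity protein, was at 47.7, 44.9 and 49.4 CPM in controls and 54.4, 58.0, 52.8 and 57.8 CPM in mutants (0.23 ± 0.06 SE, limma adjusted p = 0.351). *Itga4*, the alpha-4 integrin by which epicardium attaches to the heart, was lower in every mutant pool, as were 4.16% of all genes, at 133, 111, 113 and 127 CPM against 189, 147 and 156 CPM (-0.43 ± 0.10 SE, limma adjusted p = 0.222). *Podxl* and *Itga4* passed the threshold by edgeR's likelihood ratio test (adjusted p = 0.0348 and 0.00892), which called 0.713% of all genes, and by DESeq2 (adjusted p = 0.0146 and 0.00662), which called 0.597%. *Podxl* is also made by endothelium and *Itga4* by mesenchymal cells.

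With the mean of the 7 markers other than *Anxa8*, 8 of the 22 wider-list genes with overlapping groups and at least 1 CPM had r of 0.8 or more, namely *Muc16*, *Krt7*, *Aldh1a2*, *Rspo1*, *Sema3d*, *Ezr*, *Tbx18* and *Gpm6a*. Of all such genes outside the markers, 175 of 13287, or 1.32%, reached 0.8. These r values share the 7 libraries and are given as a description, and they ran down to -0.65 for *Gata5*. Across the table, the 5 genes most like the marker mean were *Mbp* (r = 0.98), *Prc1* (0.97), *Svep1* (0.96), *Egfl6* (0.96) and *Erich1* (0.95), over 7 pools.

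**Figure D5:**
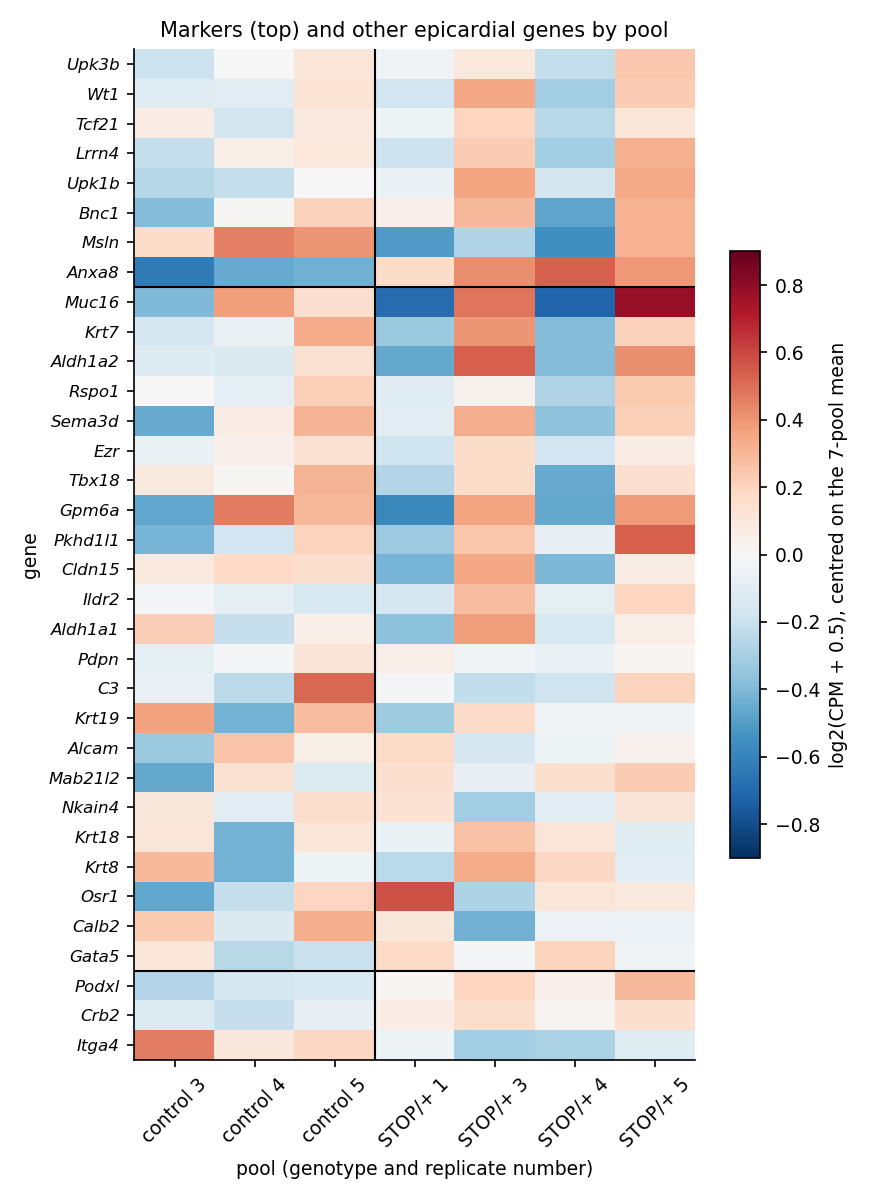
Log2(CPM + 0.5) centred on the mean over 7 pools for the 8 markers (top), for 23 other epicardial and mesothelial genes with overlapping groups, ordered by r with the marker mean (middle), and for the 3 without overlap (bottom). The upper rows of the middle block are blue in Gata6STOP/+ pools 1 and 4 and red in pools 3 and 5, like *Wt1* and *Lrrn4*, and the lower rows are not.

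*Anxa8*, chosen for its higher level, is 1 of 10 listed annexins. Of the 9 others, 4 had positive and 5 negative differences, with a median of -0.06 on the log2 scale and 0 past the limma threshold (1 of 9 at an unadjusted p under 0.05, beside 8.06% of all genes). None of the 9 was higher in every mutant pool, as were 4.31% of all genes, and 1 was lower in every mutant pool, as were 4.16%. This was *Anxa6*, at 470 to 487 CPM against 498 to 545 CPM (log2 difference -0.11 ± 0.06 SE, limma adjusted p = 0.701). *Anxa5*, the abundant annexin used to stain dying cells, was at 280 to 351 CPM against 342 to 389 CPM (-0.22 ± 0.08 SE, limma adjusted p = 0.534). *Anxa1*, *Anxa2*, *Anxa3*, *Anxa4*, *Anxa7*, *Anxa9* and *Anxa11* had log2 differences between -0.20 and 0.07 with overlapping groups. *Anxa10* and *Anxa13* are not in the table. The 5 genes outside the markers whose centred values were nearest to those of *Anxa8* were *Gm43587*, *Dio2*, *Th*, *Col8a1* and *4833422M21Rik*, with root mean square differences of 0.12 to 0.19 on the log2 scale over 7 pools. *Dio2*, which activates thyroid hormone, was at 5.71 to 6.66 CPM in controls and 8.24 to 11.02 CPM in mutants, and *Col8a1*, a short-chain collagen, at 6.14 to 8.01 and 10.8 to 13.7 CPM.

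Other cell types in the dissected tissue were read by their own lists. Of the squamous and surface ectoderm genes, where *Anxa8* is also known, 7 of 16 are in the table, and *Krt5*, *Krt14* and *Trp63* are not. The summed level of the list was 746 to 801 CPM in controls and 759 to 833 CPM in mutants. Of 12 foregut epithelium genes, *Cldn4* and *Sox2* are listed, and *Epcam*, *Cdh1* and *Foxa2* are not. Of the kidney and gonad genes, 4 of 9 are in the table, without *Pax2*, with overlapping sums of 11.7 to 17.5 CPM in controls and 11.5 to 13.1 CPM in mutants. *Nphs1* was at 4.28 to 7.50 CPM in controls and 3.46 to 3.999 CPM in mutants. It was lower in every mutant pool, as were 4.16% of all genes, and the smallest limma adjusted p of this list was 0.522. The liver list holds 4 of 8 genes, without *Alb*, with sums of 1.68 to 13.9 and 2.97 to 36.7 CPM.

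The summed levels of 3 lists did not overlap between genotypes. How often this occurs for lists of other genes was not computed. For single genes, 4.31% of all listed genes were higher in every mutant pool and 4.16% were lower. Splanchnic and lung bud mesenchyme (6 of 8 genes) was at 21.1 to 24.9 CPM in controls and 27.9 to 36.8 CPM in mutants. Of its 6 listed genes, 4 had positive and 2 negative differences, with a median of 0.33 on the log2 scale. Only 2 of the 6 did not overlap between groups, *Barx1* at 3.04 to 4.70 against 7.40 to 10.1 CPM and *Foxf1* at 0.621 to 0.784 against 1.304 to 2.98 CPM. The second heart field list (6 of 7 genes, *Fgf8* not listed) was at 132 to 149 and 158 to 178 CPM, with *Tbx1* at 3.48 to 5.04 against 5.69 to 6.47 CPM. Neural crest and glia (5 of 7 genes, *Foxd3* not listed) was at 81.8 to 115 and 68.5 to 80.7 CPM. Its genes had 2 positive and 3 negative differences, and each of them overlapped between groups. By limma neither *Barx1* (adjusted p = 0.0970) nor *Foxf1* (adjusted p = 0.243) passed. *Barx1* passed by edgeR's likelihood ratio test (adjusted p = 1.25e-05) and DESeq2 (6.30e-06). With the replicate block it passed by the likelihood ratio test (adjusted p = 1.45e-06), quasi-likelihood (0.0470) and limma (0.0388). *Foxf1* passed by edgeR's likelihood ratio test without the block (adjusted p = 0.00566) and with it (0.0208), and by DESeq2 (0.0110). It did not pass by limma or quasi-likelihood with the block. The part of these lists in the level of *Anxa8* was not tested.

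The other lists overlapped between genotypes in their sums. *Pdgfra* of the epicardium-derived mesenchyme list, a receptor of many mesenchymal cells, was lower in every mutant pool, as were 4.16% of all genes. It was at 159 to 223 against 227 to 311 CPM (log2 difference -0.50 ± 0.14 SE, limma adjusted p = 0.354). *Tnni1* of cardiac muscle and *Smtn* of smooth muscle were also lower in every mutant pool, by -0.26 and -0.15. The cardiac muscle list had 1 positive and 9 negative differences (median -0.11 on the log2 scale). The smooth muscle list had 5 positive and 2 negative differences (median 0.15). The list of epicardium-derived mesenchyme was all present (11 of 11 genes), with 3 positive and 8 negative differences and a median of -0.04 on the log2 scale. By limma 0 of its genes passed (1 of 11 at an unadjusted p under 0.05, beside 8.06% of all genes). Y-linked genes summed to 39.9 to 93.4 CPM in controls and 70.4 to 174 CPM in mutants. Of these, 4 of 4 had a positive difference with an unadjusted p under 0.05 by limma and 0 passed the adjusted threshold, with a median of 0.95 on the log2 scale. *Xist* was at 362 to 662 CPM in controls and 1.3 to 539 CPM in mutants, the lowest being pool 4, in which *Anxa8* was highest and the mean of the 6 markers was lowest. Haemoglobin and other erythroid genes summed to 2314 to 5582 CPM in controls and 2681 to 7012 CPM in mutants, and macrophage genes to 55.3 to 74.0 and 41.4 to 98.6 CPM. The part of these in the marker levels was not tested.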

How the data were processed

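RNA of 7 OFT pools was measured by stranded poly(A) RNA-seq. The authors trimmed the reads with Cutadapt, quantified genes with RSEM on GRCm38 with Ensembl genes and kept genes of at least 1 CPM in at least 3 samples. The deposited values are CPM scaled by the TMM method of edgeR, and dividing them by what 1 read is worth gave whole reads for 100.0% of values in each pool (tolerance 1e-06 reads).

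Here limma 3.58.1 (mean-variance trend, no covariates, R 4.3.3) was run on log2(CPM + 0.5) over 14732 genes, two-sided, p-values adjusted by Benjamini-Hochberg and called below 0.05. Intervals are at 95%. Exact permutation tests of 21 marker pairs used scipy 1.17.1. EdgeR 4.0.16 and DESeq2 1.42.0 on the recovered reads, other constants (0.1 and 2), a filter at a mean of 2 CPM, other scalings, a replicate block and leaving out each pool were the alternatives, and the limma, edgeR and DESeq2 fits were tested on simulated reads. Spearman's rho and scaled reads without a constant were alternatives for the pairs. Centring within genotypes and leaving out pools for the pairs were added after seeing the data. Positions come from GENCODE M21 and promoters from RefSeq.

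The markers and all lists were chosen with earlier results of these data known. Named genes are the markers, the wider-list genes that do not overlap between groups or belong to a short set picked by role (*Tbx18*, *Aldh1a2*, *Muc16*, *Gpm6a*, *Podxl*, *Itga4* and keratins), gene relatives, *Gata6*, the 5 genes most like the marker mean or *Anxa8*, and, in other lists, genes that do not overlap between groups. Names added beyond these were chosen after their values were seen. Some items under this rule are not reported here.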

Additional observations from a re-analysis of the deposited data

Results flagged for a closer look

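Of 66 sets of 4 Gata6STOP/+ values examined for a pool far from the others, 1 stood out, where chance gives about 1 in 20. *Lrrn3*, a relative of *Lrrn4*, measured 10.3 CPM in Gata6STOP/+ replicate 1, and 7.79 to 8.01 CPM in the other 3 mutant pools.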

How the results depend on the processing

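Under all alternatives, 0 of the 7 markers other than *Anxa8* passed the threshold, and *Upk1b* (0.20 to 0.37 on the log2 scale) and *Msln* (-0.78 to -0.39) kept their direction. Leaving out each pool in turn gave log2 differences of -0.057 to 0.16 for *Wt1*, -0.076 to 0.091 for *Tcf21*, -0.028 to 0.13 for *Upk3b*, -0.065 to 0.27 for *Bnc1*, -0.071 to 0.14 for *Lrrn4*, -0.11 to 0.22 for *Aldh1a2*, -0.35 to 0.15 for *Muc16*, -0.46 to 0.0089 for *Gpm6a*, -0.076 to 0.28 for *Krt8*, -0.059 to 0.21 for *Krt18* and -0.37 to 0.021 for *Krt19*, so these directions are not set. *Muc16* was also positive by edgeR (0.050 by likelihood ratio and 0.053 by quasi-likelihood, 0.17 by both blocked tests), DESeq2 (0.051) and limma with the replicate block (0.14). The difference of *Anxa8* was 1.11 with a constant of 0.1, 0.51 with a constant of 2, 1.182 and 1.183 by the unblocked edgeR tests, 1.27 by both with the replicate block, 1.19 by DESeq2 and 0.82 to 0.96 without single pools. It has no value under the filter at 2 CPM, since its mean is lower. Relative to the other markers it was 0.49 with a constant of 2, 1.25 by both blocked edgeR tests and 0.73 to 0.98 without single pools. The wider-list median ran from -0.07 to 0.06.

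The number of genes called was 0 by limma, 1 with a constant of 0.1, 105 by edgeR's likelihood ratio test, 88 by DESeq2, and 0 to 13 without single pools (13 without control replicate 4). With the replicate number as a block it was 14 by limma, 13 by edgeR's quasi-likelihood test and 118 by its likelihood ratio test. Without the block, quasi-likelihood called 0 (1177 at an unadjusted p under 0.05). In the wider list, 2 genes passed by the likelihood ratio test with or without the block and by DESeq2. In the lists of other cell types, 3 passed by DESeq2, 2 by the likelihood ratio test, 9 by it with the block, and 2 by each other blocked fit. Same-numbered pools did not deviate together (correlations of -0.05, -0.27 and -0.02), and the numbers were not taken to pair them. So few correlations cannot show whether the pools were paired, and Gata6STOP/+ replicate 1 has no partner in the block. Between 0 and 10 marker pairs passed without single pools. The causes of these changes were not tested. With 18 to 30 reads in control pools, *Anxa8* rests on the fewest reads of the markers.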
